A study of Mus musculus with 47 samples.

Results

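The mitochondrial genome encodes a small set of messenger RNAs for subunits of the respiratory chain, and 9 of them are described here in mouse tibialis anterior, a shin muscle. They were chosen by symbol: mt-Nd1, mt-Nd2, mt-Nd4 and mt-Nd5 of complex I, mt-Cytb of complex III, mt-Co1, mt-Co2 and mt-Co3 of complex IV, and mt-Atp6 of ATP synthase. The 9 were found among 13500 genes, 13 of which were mitochondrially encoded and protein-coding. A member was set aside from counts when its mean FPKM (fragments per kilobase of transcript and library size, a level per length) was more than 10 times below the median of the 9. This set aside mt-Co2, mt-Co3 and mt-Atp6 and kept 6. With a threshold of 2 times below the median the same 3 were set aside.

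Mitochondrial DNA is transcribed from both strands as long precursors, from which the messenger, ribosomal and transfer RNAs are cut, so most of the messengers start out on a shared transcript. The polymerase is POLRMT, TFAM packages the DNA and starts transcription, and LRPPRC and GRSF1 act on the RNA afterwards. Complexes I, III and IV and ATP synthase are built from mitochondrially and nuclear encoded subunits together, and complex II from nuclear ones alone. Skeletal muscle carries large amounts of these RNAs, and oxidative fibres have more mitochondria than glycolytic ones.

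RNA was sequenced from 47 samples of whole muscle of female C57BL/6 mice, aged 8 to 18 weeks and fed ad libitum. The study asks how adrenal hormones act on daily gene expression in muscle. Samples were taken at ZT0 or ZT12, in hours after lights on, in 6 conditions. WT SHAM were wild-type mice after sham surgery, and WT ADX were wild-type mice after removal of both adrenal glands (adrenalectomy). WT ADX+ADR and WT ADX+DEX were adrenalectomized and then injected at ZT12 for 10 days with adrenaline at 0.5 mg/kg or with dexamethasone, a synthetic glucocorticoid, at 5 mg/kg. RE-RE SHAM and RE-RE ADX carried Bmal1(stopFL/stopFL) with Syt10-Cre(-/tg) and Hsa-Cre(-/tg). In such mice a blocked clock gene Bmal1 is re-expressed where Cre is active: the Syt10 driver acts in the brain, mainly in its central clock, and the Hsa driver in skeletal muscle. Cells of other organs keep the blocked gene. Adrenalectomized mice drank saline with glucose. No vehicle-injected group is among the samples, so injection and hormone cannot be told apart, and in the injected groups the time since the last dose differs between ZT0 and ZT12. WT ADX at ZT0 was sampled 3 times and every other group 4 times. The labels give the libraries as separate samples and do not say more about their origin, so p-values measure the spread between these samples.

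Library depth here means the divisor of the FPKM values, recovered from the spacing of low values. It was 16.2 to 35.7 M reads, with a median of 22.6 M. The read equivalents of the 6 kept messengers came to 9.77% ± 1.35 (SD, n = 47) of this depth, with a range of 7.07 to 12.6%. The genes outside the mitochondrial genome summed to a mean of 1.04 times the depth, so these percentages are not shares of all read equivalents. Across the 47 libraries the Pearson correlation of the kept messengers' mean log2 level with depth was -0.088. With the non-mitochondrial total it was 0.63, as a description. In 7 libraries of the WT SHAM, RE-RE SHAM and RE-RE ADX conditions, no more than 1 low value equalled exactly that of a library of the same group, while in the other 40 more did. Results that rest on those 7 are given with and without them. Bmal1 (Arntl), the gene altered in RE-RE, read 13.4 to 15.2 FPKM at ZT0 in RE-RE SHAM and 14.2 to 18.8 FPKM in WT SHAM, and at most 0.758 FPKM in either at ZT12. Muscle markers were high: the summed level of Acta1, Ckm, Mylpf, Ttn and Des was 33901 to 50647 FPKM in the 47 libraries, and that of the 8 fast fibre genes was 44213 to 64097 FPKM. Sham and adrenalectomized wild-type mice differed in age, at 9 to 11 against 12 to 15 weeks at ZT0 and 10 to 12 against 13 to 17 weeks at ZT12.

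The sequences are shown first, because they differ between the kept and the set-aside members. Each messenger was divided into all windows of 60 bases, the read length of the libraries, and every window was looked up in 141767 annotated GENCODE M21 transcripts of the GRCm38 build. For mt-Co2 100% of windows occurred in another transcript, for mt-Co3 99.9% and for mt-Atp6 99.5%. Most of the matches lay in a run of 7 unprocessed pseudogenes on the minus strand of chromosome 1, chr1:24611535-24616197, which is an annotated nuclear copy of mitochondrial DNA. Over their aligned length the copies of mt-Co2 (Gm28661), mt-Atp6 (Gm10925) and mt-Co3 (Gm28437) differed from the messenger at 0 of 681, 678 and 783 bases. The next lines give bases 61 to 120 of each set-aside member and its copy, to show that a read from here would match both.
mt-Co2: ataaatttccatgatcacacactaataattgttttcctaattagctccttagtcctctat
Gm28661: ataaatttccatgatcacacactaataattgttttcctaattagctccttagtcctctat
mt-Atp6: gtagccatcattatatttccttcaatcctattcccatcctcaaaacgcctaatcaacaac
Gm10925: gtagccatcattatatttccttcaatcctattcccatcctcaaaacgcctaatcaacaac
mt-Co3: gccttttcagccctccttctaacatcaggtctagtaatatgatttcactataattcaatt
Gm28437: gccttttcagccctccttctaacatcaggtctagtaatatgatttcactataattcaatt

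Among the kept members, mt-Co1 and mt-Nd4 were matched in part, with 46.5% and 61.9% of windows. Of the mt-Co1 windows, 420 occurred in Gm29216 on chromosome 1. Another 1545-base copy on chromosome 2, Gm13340, held 327 windows, between bases 88 and 1457. The copy Gm29216 held the last stretch of mt-Co1, and its 6 differences (T1056A, C1057T, A1059G, A1060G, C1062A and A1066T, messenger base first, counted from the messenger's first base) all fell near the start of the copy. Gm28439 held the first 876 bases of mt-Nd4 with 0 differences. The next lines give the edges, bases 1022 to 1111 of mt-Co1 and 832 to 921 of mt-Nd4. Capitals mark the unbroken stretch that is identical in the chromosome 1 copy.
mt-Co1: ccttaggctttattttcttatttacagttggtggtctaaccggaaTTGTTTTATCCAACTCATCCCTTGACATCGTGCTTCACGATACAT
mt-Nd4: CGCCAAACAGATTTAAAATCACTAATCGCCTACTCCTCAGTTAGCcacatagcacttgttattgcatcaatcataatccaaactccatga
For mt-Nd2 the share was 7.2%, from Gm13339 on chromosome 2. For mt-Nd5 it was 4.4%, from Gm11407 on chromosome 4 and Gm4076 on chromosome 13. For mt-Nd1 and mt-Cytb it was 0%, so results for this pair rest on sequence with no annotated match. Bases 61 to 120 of both are shown as examples of such sequence.
mt-Nd1: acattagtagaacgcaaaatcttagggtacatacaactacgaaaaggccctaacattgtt
mt-Cytb: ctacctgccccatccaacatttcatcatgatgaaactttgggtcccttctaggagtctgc

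Low levels were found mainly where the sequence was shared. The 5 messengers with over 90% of windows matched (mt-Co2, mt-Atp6, mt-Co3, mt-Nd3 and mt-Nd4l) had mean levels of 1.27 to 19.2 FPKM. The other 8 had 1.11 to 20045 FPKM. The lowest of these was mt-Atp8, with 0% of windows matched, a length of 204 bases and a mean of 1.11 FPKM. By position mt-Atp8 (7766 to 7969) starts after mt-Co2 and overlaps mt-Atp6, whose copies Gm28661 and Gm10925 lie in the same chromosome 1 run. The search covered annotated transcripts alone and not the stretch between those copies, so 0% does not show that mt-Atp8 is unique. The 7 chromosome 1 copies themselves were listed at means of 448 (Gm10222) to 3749 FPKM (Gm29216). How the authors' counting treated reads that fit both places is not given in the sources used here, and its part in the levels of the set-aside members was not tested.

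**Figure D1:**
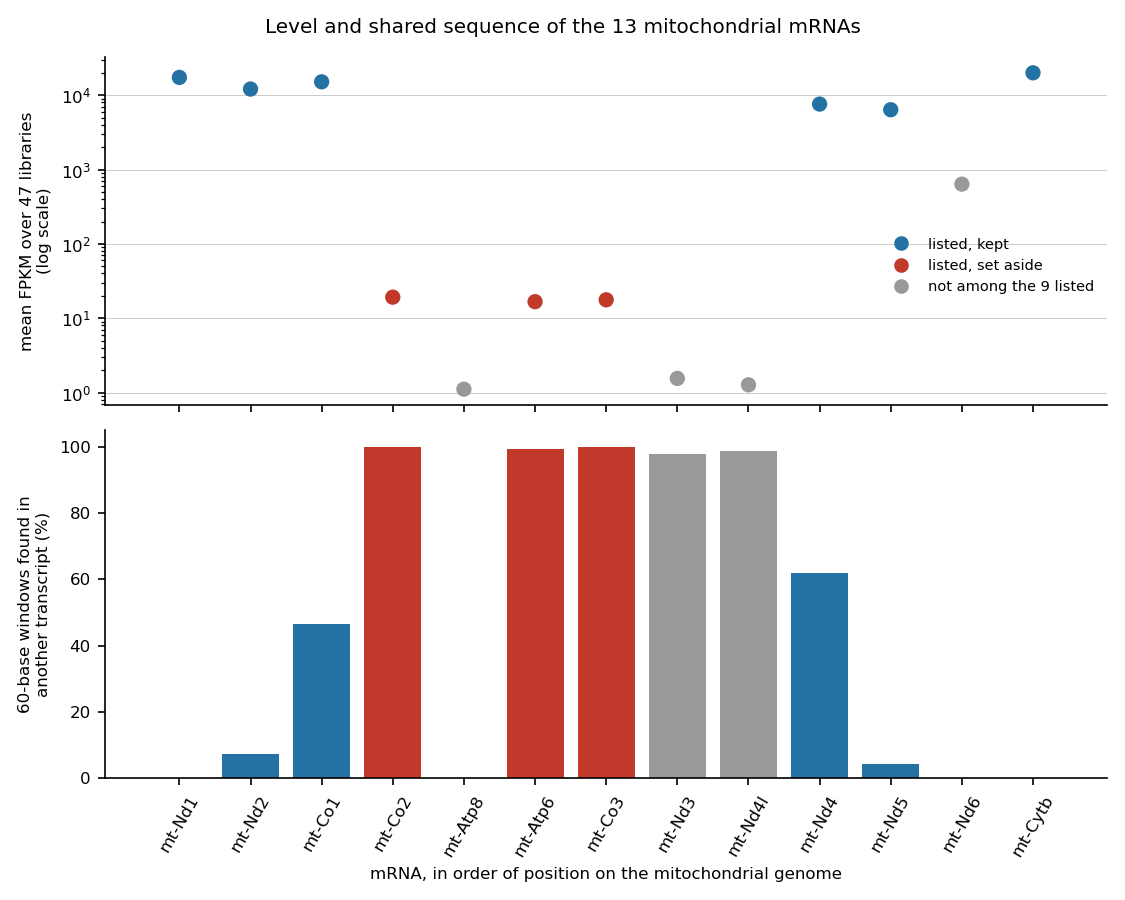
Mean FPKM over 47 libraries (top, log scale) and percent of 60-base windows that also occur in another annotated transcript (bottom) for the 13 mitochondrial messengers, in order of position. The 3 set-aside members sit at 16.7 to 19.2 FPKM with at least 99.5% of windows matched, and the 6 kept members at 6391 to 20045 FPKM with at most 61.9% matched.

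The kept members were among the most abundant RNAs of the muscle. On the per-length FPKM scale mt-Cytb, the cytochrome b of complex III (mitochondrial genome, positions 14145 to 15288), had the highest mean over the 47 libraries, 20045. Of complex I, mt-Nd1 (positions 2751 to 3707) had 17388, mt-Nd2 (3914 to 4951) 12129, mt-Nd4 (10167 to 11544) 7612 and mt-Nd5 (11742 to 13565) 6391. The catalytic subunit of complex IV, mt-Co1 (5328 to 6872), had 15170. All are single genes without introns, on the plus strand of GRCm38. Their lowest depth was that of mt-Nd4, at 118703 read equivalents or more per library, so counting error was small beside the spread between samples. For mt-Nd4 the SD within a group had a median of 7.36% of the mean. Of the set-aside members, mt-Co2 (7013 to 7696) had 19.2 FPKM and a median of 315 read equivalents per library, mt-Co3 (8607 to 9390) had 17.7 FPKM and mt-Atp6 (7927 to 8607) 16.7 FPKM.

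All 6 kept messengers were lower after adrenalectomy in wild-type muscle at ZT0. Their log2 differences between WT ADX and WT SHAM ran from -0.57 (mt-Nd1) to -0.69 (mt-Nd5), with a median of -0.61, which is a level 0.655 times that of sham. Tests were made with limma on the deposited log2 values of 12000 genes, with Benjamini-Hochberg adjusted p-values, and calls were made where these were under 0.05. In this comparison 32.0% of the tested genes were called, and 19.4% of the tested genes were called as lower. The median of all tested genes was -0.02. After rescaling to equal totals outside the mitochondrial genes the 6 were still called, at a median of -0.52, while the calls over all genes went from 1516 higher and 2322 lower to 2301 higher and 1294 lower.

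At ZT0 mt-Nd1, a core membrane subunit of complex I, stood at 19719, 18921, 18749 and 19452 FPKM in the sham libraries and at 13231, 13161 and 12410 FPKM after adrenalectomy. The groups did not overlap, and its log2 difference was -0.57 ± 0.09 (SE, adjusted p = 1.7e-05). For mt-Nd2, another membrane subunit, the values were 13756, 13431, 12505 and 13805 FPKM against 8726, 8734 and 8743 FPKM. The 3 adrenalectomized libraries lay close together and below every sham library, with a log2 difference of -0.61 ± 0.10 (SE, adjusted p = 1.93e-05). Proton-pumping subunit mt-Nd4 read 8907, 8077, 8169 and 8786 FPKM in sham and 5832, 5301 and 5564 FPKM in WT ADX. The gap was wider than the range within either group (log2 difference -0.61 ± 0.09, SE, adjusted p = 2.5e-06). In mt-Nd5, the longest of the members at 1824 bases, the sham values were 7834, 7033, 6693 and 7760 FPKM and the WT ADX values 4356, 4473 and 4751 FPKM. It had the most negative log2 difference of the 6, -0.69 ± 0.11 (SE, adjusted p = 9.53e-06).

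Outside complex I the fall at ZT0 was of the same size. Cytochrome b, mt-Cytb, read 23004, 21711, 21232 and 23196 FPKM in sham and 15041, 14141 and 14388 FPKM in WT ADX. All 3 adrenalectomized libraries were below the sham libraries (log2 difference -0.62 ± 0.10, SE, adjusted p = 6.3e-06). The values of mt-Co1 were 18334, 17637, 17684 and 19115 FPKM against 12374, 12066 and 11394 FPKM. Again the groups did not overlap (log2 difference -0.61 ± 0.10, SE, adjusted p = 8.62e-06). Groups did not overlap for 6 of 6 kept members, beside 32.6% of all tested genes. The 2 members with no matched window, mt-Nd1 and mt-Cytb, fell like the others. With only these 7 libraries in the model, 2 of the 6 were called, at the same median of -0.61.

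At ZT12 the same 6 messengers fell after adrenalectomy, by a median of -0.36 on the log2 scale and to 0.777 times the sham level. Of all tested genes 26.9% were called and 16.6% as lower, with an overall median of -0.02. The sham values of mt-Nd1 were 19034, 15803, 18504 and 17270 FPKM, and those of WT ADX 14109, 13171, 15187 and 15488 FPKM. Its lowest sham library was close to the highest WT ADX library, and its log2 difference was the smallest, -0.28 ± 0.09 (SE, adjusted p = 0.0133). For mt-Cytb the values were 22193, 19533, 21315 and 19798 FPKM in sham and 15943, 14072, 16368 and 17294 FPKM in WT ADX. These groups were further apart (log2 difference -0.38 ± 0.09, SE, adjusted p = 0.00136). In mt-Nd5 3 WT ADX libraries read 4639, 4631 and 4836 FPKM and replicate 7 read 6132 FPKM, all below the sham range of 6675 to 8019 FPKM. Its log2 difference was the most negative at this time too, -0.52 ± 0.10 (SE, adjusted p = 0.000243).

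The remaining members at ZT12 were mt-Nd2 (10399 to 13821 FPKM in sham, 8591 to 10120 in WT ADX), mt-Nd4 (6921 to 8336 against 5595 to 6741 FPKM) and mt-Co1 (14874 to 16760 against 10977 to 13667 FPKM). Their log2 differences were -0.37, -0.32 and -0.36, with adjusted p-values of 0.00305, 0.00364 and 0.00268. Groups did not overlap for 6 of the 6, beside 28.3% of all tested genes. With age as a covariate 2 of the 6 were called at ZT12 and 6 at ZT0, and a model of the 8 libraries alone called 1 at ZT12. After rescaling 5 of 6 were called at ZT12, at a median of -0.24, the median of all tested genes went from -0.02 to 0.10, and the calls over all genes from 1240 higher and 1992 lower to 2720 higher and 815 lower. A difference in time course between the conditions was not called for any of the 6 (log2 0.18 to 0.29, adjusted p = 0.247 to 0.676, 1.54% of tested genes called).

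**Figure D2:**
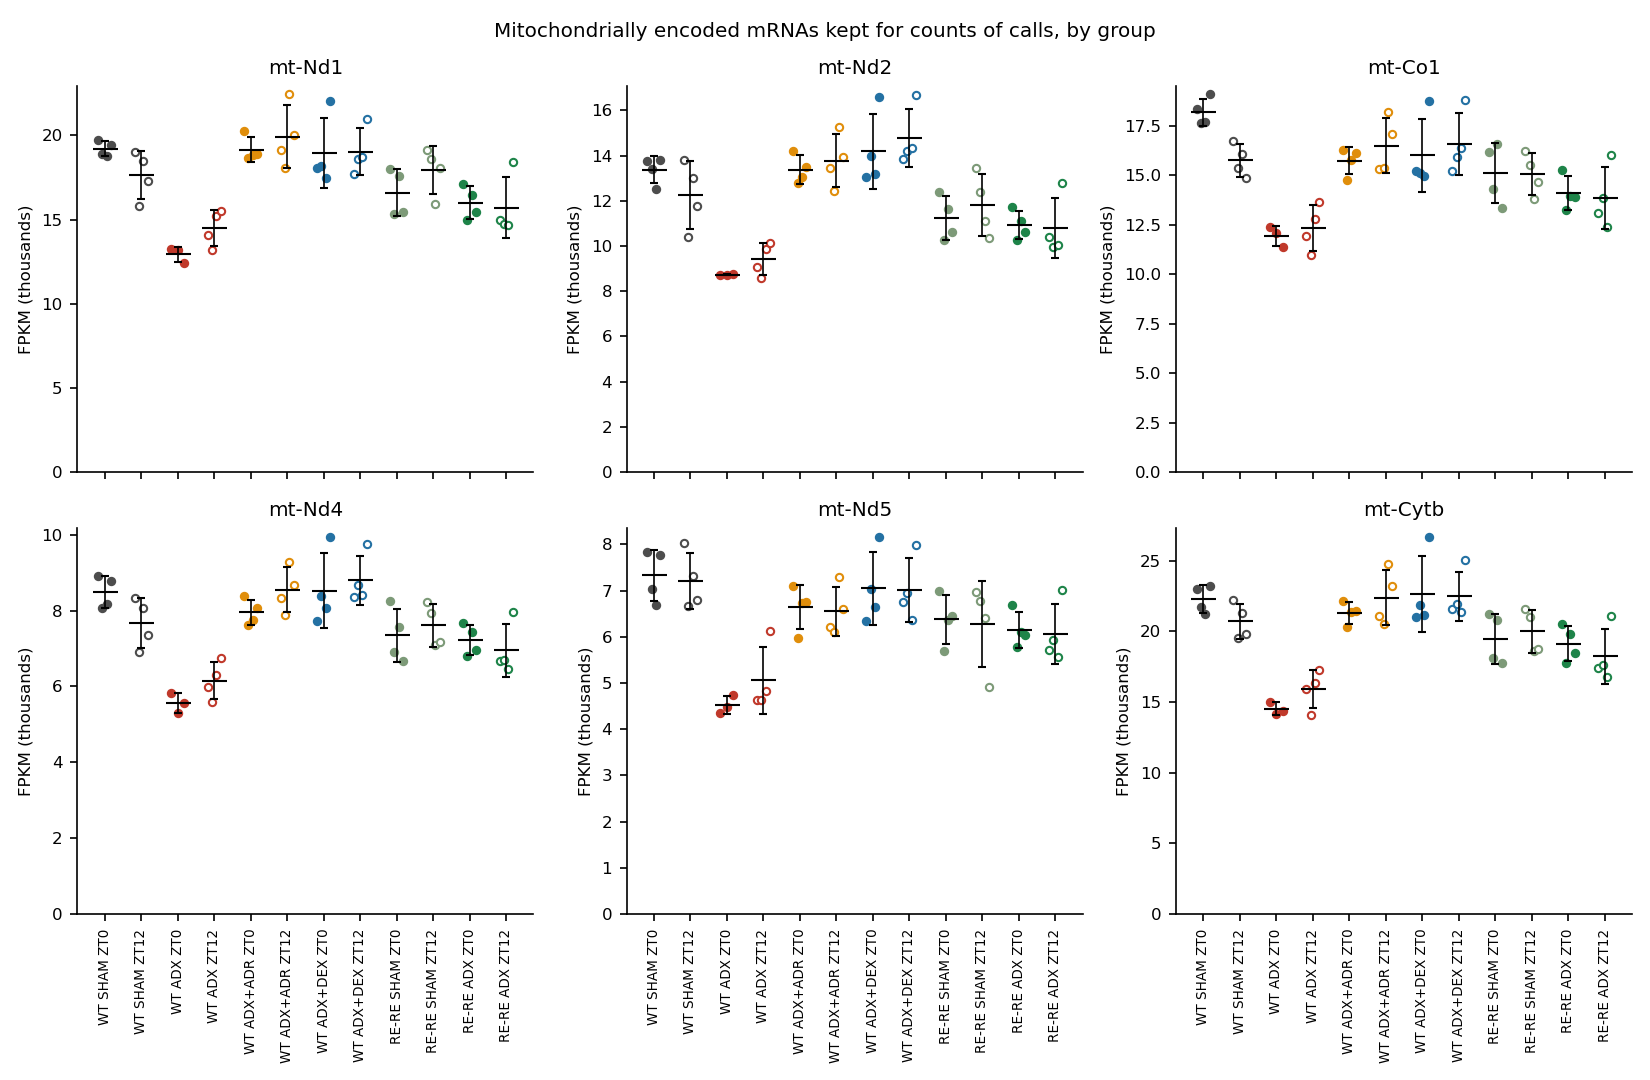
Level in FPKM, on a scaled axis, of the 6 kept members in every library, by group; filled points are ZT0, open points ZT12, and bars give the mean and SD. The WT ADX libraries lie lowest: for mt-Cytb 1 of the other 40 libraries is below the highest of them (17294 FPKM), and for mt-Nd5 10 of 40 are below the highest (6132 FPKM).

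Set against all other conditions, the 7 WT ADX libraries took the bottom of the scale with little overlap. Their summed level of the 6 messengers was 57038 to 69442 FPKM, and 6 of the 7 lay below each of the other 40 libraries, which ran from 65939 to 102177 FPKM. Of the other 40, the number below the highest WT ADX library was 1 for mt-Cytb, 2 for mt-Nd2, 4 for mt-Nd4 and for mt-Co1, 7 for mt-Nd1 and 10 for mt-Nd5. By group mean the order, from the top, was WT SHAM at ZT0 (88877 ± 3498, SD, n = 4), WT ADX+DEX at ZT12 (88664), WT ADX+ADR at ZT12 (87677), WT ADX+DEX at ZT0 (87409), WT ADX+ADR at ZT0 (84190) and WT SHAM at ZT12 (81250). The RE-RE groups followed, with 78698 (SHAM, ZT12), 76152 (SHAM, ZT0), 73556 (ADX, ZT0) and 71596 (ADX, ZT12). WT ADX came last, with 63391 ± 5281 (SD, n = 4) at ZT12 and 58228 ± 1194 (SD, n = 3) at ZT0. Neighbours in this order overlapped in every case, also for each kept member alone. Relative to library depth, the read equivalents of the 6 messengers came to 11.1% in WT SHAM and 7.24% in WT ADX at ZT0. As above, these percentages are not shares of all read equivalents. In bulk muscle, fewer cells of a type and less RNA per cell cannot be told apart. A test for any difference among the 12 groups called all 9 members, but it also called 94.6% of the tested genes.

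In adrenalectomized mice that received adrenaline the 6 messengers were higher than after adrenalectomy alone. The log2 differences between WT ADX+ADR and WT ADX ran from 0.40 (mt-Co1) to 0.61 (mt-Nd2) at ZT0, with 6 of 6 called, beside 51.1% of tested genes called and 26.8% as higher. At ZT12 they ran from 0.38 (mt-Nd5) to 0.55 (mt-Nd2), again with 6 of 6 called, beside 53.0% called and 27.7% as higher. With adrenaline mt-Nd1 read 20256, 18628, 18812 and 18891 FPKM at ZT0 and 19114, 18034, 22431 and 20044 FPKM at ZT12. No adrenaline library was as low as any WT ADX library, and the log2 differences were 0.57 ± 0.09 (SE, adjusted p = 6.09e-06) and 0.46 ± 0.09 (SE, adjusted p = 4.13e-05). For mt-Cytb the adrenaline values were 22187, 20285, 21399 and 21436 FPKM at ZT0 and 21118, 20503, 24755 and 23201 FPKM at ZT12. These too lay above the WT ADX values, by 0.55 ± 0.10 (SE, adjusted p = 1.03e-05) and 0.49 ± 0.09 (SE, adjusted p = 1.73e-05) on the log2 scale. Groups did not overlap for 6 members at ZT0 and 5 at ZT12, the exception being mt-Nd5, beside 49.0% and 47.5% of tested genes. After rescaling the calls over all genes went from 3220 higher and 2914 lower to 2503 and 3589 at ZT0, and from 3326 and 3031 to 2746 and 3482 at ZT12.

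With dexamethasone the 6 messengers were also higher than after adrenalectomy alone. The log2 differences between WT ADX+DEX and WT ADX ran from 0.42 (mt-Co1) to 0.69 (mt-Nd2) at ZT0 and from 0.39 (mt-Nd1) to 0.65 (mt-Nd2) at ZT12, with 6 of 6 called at both times. Of tested genes 68.9% and 66.3% were called, 36.4% and 34.6% as higher. Groups did not overlap for any of the 6 at either time, beside 63.3% and 59.4% of tested genes. With dexamethasone mt-Nd2 read 13042, 13987, 13169 and 16595 FPKM at ZT0 and 13868, 14212, 14323 and 16678 FPKM at ZT12. Replicates 4 and 8 were the highest of their groups, and the log2 differences were 0.69 ± 0.10 (SE, adjusted p = 1.98e-07) and 0.65 ± 0.09 (SE, adjusted p = 2.11e-07). The values of mt-Co1 were 15217, 15121, 14969 and 18760 FPKM at ZT0 and 15232, 15942, 16365 and 18818 FPKM at ZT12. They lay above WT ADX by 0.42 ± 0.10 (SE, adjusted p = 0.000218) and 0.43 ± 0.09 (SE, adjusted p = 6.92e-05) on the log2 scale. When libraries were rescaled to equal totals outside the mitochondrial genes, the median of all tested genes in the ZT0 comparison was -0.14 in place of 0.04, and the members' median was 0.44 in place of 0.62. The calls over all genes there went from 4365 higher and 3900 lower to 2929 higher and 5273 lower, and at ZT12 from 4150 and 3807 to 3006 and 4808. With only the 7 libraries compared in the model 3 of 6 were called at ZT0.

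Against sham the injected groups differed less. No kept member was called for WT ADX+ADR at ZT0 (43.1% of tested genes called, log2 -0.21 to 0.00) or ZT12 (39.0%, -0.14 to 0.17), or for WT ADX+DEX at ZT0 (62.6%, -0.19 to 0.08), and 1, 0 and 1 had an unadjusted p under 0.05. At ZT12 under dexamethasone mt-Nd2 (log2 0.27, adjusted p = 0.0142) and mt-Nd4 (0.20, adjusted p = 0.04) were higher than in sham, beside 52.7% of tested genes called and 24.6% as higher. Neither was called without the 7 libraries that stood apart, or without WT SHAM replicate 6 or WT ADX+DEX replicate 8, and 1 was without WT SHAM replicate 8 or WT ADX+DEX replicate 6. Between the hormones 0 of 6 were called at either time (limma, 0 with an unadjusted p under 0.05 at both), with log2 differences of -0.02 to 0.09 at ZT0 and -0.06 to 0.10 at ZT12, beside 48.6% and 42.6% of tested genes. The comparisons with WT ADX share those libraries, as those with WT SHAM share theirs.

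The proportions among the 6 messengers differed between the injected and the other groups. Over all libraries mt-Cytb made up 25.4% of their summed FPKM, mt-Nd1 22.1%, mt-Co1 19.3%, mt-Nd2 15.4%, mt-Nd4 9.67% and mt-Nd5 8.12%. The ratio of mt-Nd2 to mt-Co1 was 0.732 to 0.784 as a mean of the WT SHAM, WT ADX and RE-RE groups, and 0.835 to 0.891 in the 4 injected groups. By library it was 0.677 to 0.828 in the former and 0.808 to 0.925 in the latter, so the ranges overlapped slightly. This was seen after the values were known and carries no test.

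**Figure D3:**
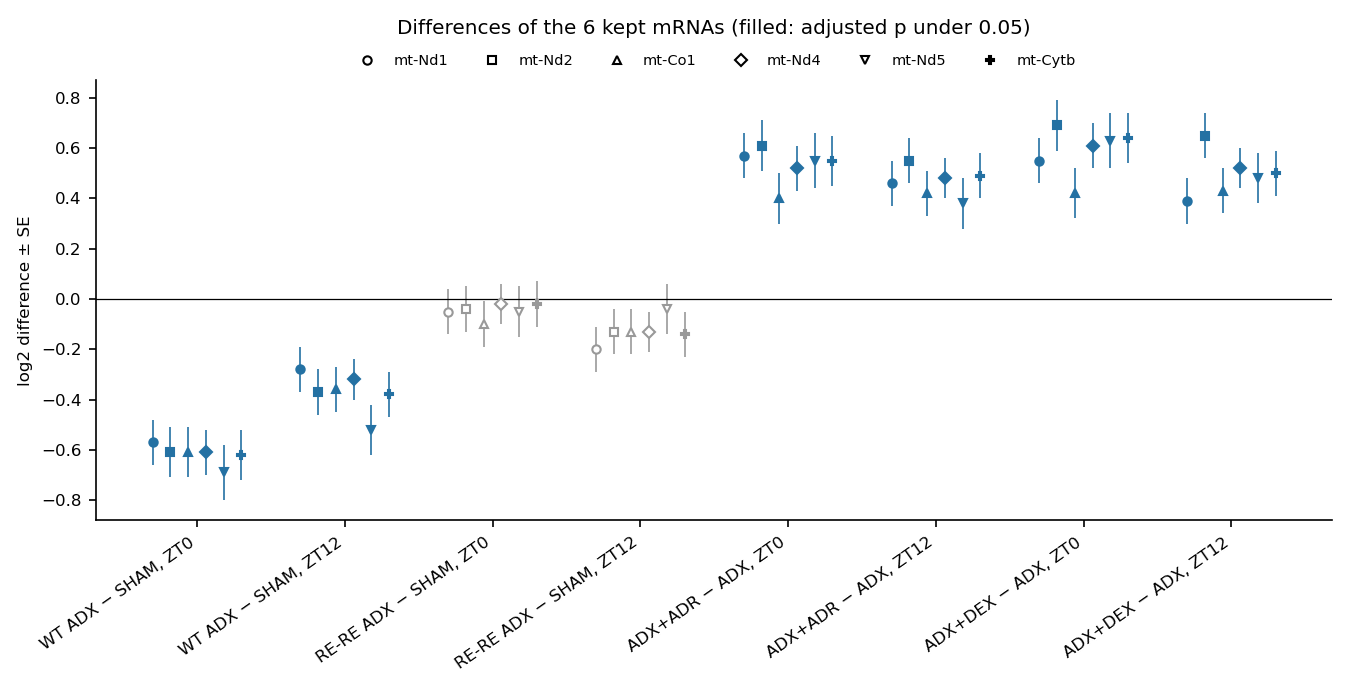
Log2 differences with SE of the 6 kept members in 8 comparisons; blue marks passed an adjusted p of 0.05 and open grey marks did not. WT ADX against sham runs from -0.69 to -0.28, RE-RE ADX against sham from -0.20 to -0.02, and injected against WT ADX from 0.38 to 0.69.

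In RE-RE mice adrenalectomy gave no called change in the 6 messengers. Their log2 differences were -0.10 to -0.02 at ZT0 (5.45% of tested genes called) and -0.20 to -0.04 at ZT12 (5.32%), and 0 and 1 of them had an unadjusted p under 0.05 in limma. The 95% intervals of single members reached -0.28 for mt-Co1 at ZT0 and -0.37 for mt-Nd1 at ZT12, so falls of that size are not shut out. At ZT0 mt-Nd1 read 18024, 15336, 17577 and 15427 FPKM in RE-RE SHAM and 17135, 14996, 16433 and 15452 FPKM in RE-RE ADX. The groups lay over each other, with a difference of -0.05 ± 0.09 (SE). For mt-Cytb the values were 21218, 18124, 20786 and 17762 FPKM against 20507, 17768, 19795 and 18503 FPKM. They also overlapped, with a difference of -0.02 ± 0.09 (SE). At ZT12 mt-Cytb read 21563, 21040, 18642 and 18757 FPKM in RE-RE SHAM and 17398, 17657, 16780 and 21111 FPKM in RE-RE ADX. There 3 of 4 adrenalectomized libraries were below the sham libraries and replicate 8 was not.

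The difference between the genotypes was tested directly. At ZT0 the effect of adrenalectomy was higher (less negative) in RE-RE than in wild type by 0.51 (mt-Co1) to 0.64 (mt-Nd5) on the log2 scale, with 6 of 6 called (adjusted p = 0.00143 to 0.00907), beside 10.7% of tested genes called and 7.38% as higher. Without the 7 libraries that stood apart, 4 of which belong to these ZT0 groups, the median difference was 0.50 in place of 0.58 and 0 of 6 were called (adjusted p = 0.0674 to 0.197). At ZT12 the difference was 0.09 to 0.47, and mt-Nd5 was called (0.47 ± 0.14, SE, adjusted p = 0.0395), beside 6.43% of tested genes and 4.82% as higher. It was not called without those 7 libraries, with equal medians, with age as a covariate or in a smaller model of these groups alone. Leaving out WT SHAM replicate 5 or 7, WT ADX replicate 4, 5 or 6, RE-RE SHAM replicate 8 or RE-RE ADX replicate 8 also ended the call.

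The sham groups of the genotypes differed a little at ZT0. There mt-Nd2 (log2 -0.25, adjusted p = 0.0461) and mt-Co1 (-0.27, adjusted p = 0.0228) were lower in RE-RE SHAM than in WT SHAM, beside 24.1% of tested genes called and 11.6% as lower, and the other 4 had differences of -0.22 to -0.20. The count was 0 without the 7 libraries that stood apart, 0 without WT SHAM replicate 4 or RE-RE SHAM replicate 2 or 4, 1 without WT SHAM replicate 1 or 2 or RE-RE SHAM replicate 3, and 4 without RE-RE SHAM replicate 1. At ZT12 0 of 6 were called, with log2 differences of -0.21 (mt-Nd5) to 0.02 (mt-Nd1), 1 unadjusted p under 0.05 in limma, and 19.3% of tested genes called.

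Time of day gave no called change in the kept members in any of the 6 conditions. In WT SHAM the log2 difference between ZT12 and ZT0 was -0.21 to -0.03, with an adjusted p of 0.0853 for mt-Co1 and 1 unadjusted p under 0.05, beside 23.5% of tested genes called. After rescaling to equal totals outside the mitochondrial genes 5 of 6 were called as lower at ZT12, at a median of -0.24 in place of -0.13, and the calls over all genes went from 1678 higher and 1140 lower to 654 and 2510. In the other conditions the differences were 0.04 to 0.16 (WT ADX, 11.0% of tested genes called), -0.02 to 0.10 (WT ADX+ADR, 12.7%), -0.01 to 0.06 (WT ADX+DEX, 27.8%), -0.03 to 0.11 (RE-RE SHAM, 10.8%) and -0.07 to -0.02 (RE-RE ADX, 0.775%). In these 5, 0 members had an unadjusted p under 0.05 in limma.

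Of the 3 set-aside messengers, mt-Co3 and to a lesser degree mt-Atp6 split the samples in another way. The complex IV subunit mt-Co3 was listed at 0 in 14 of the 15 WT SHAM and WT ADX libraries, and read 18.6 FPKM in the remaining 1, WT ADX at ZT12 replicate 4. In the other 32 libraries it read 10.4 to 59.9 FPKM. For mt-Atp6, a subunit of the proton channel of ATP synthase, 5 of the same 15 were listed at 0 and the highest read 27.4 FPKM, while 1 of the 32 others was at 0 and the highest read 37.4 FPKM. This boundary, between the uninjected wild-type groups and the rest, is crossed by every comparison of injected mice or RE-RE SHAM with those groups, and not by WT ADX against WT SHAM. Whether the libraries on its sides were prepared or counted differently is not given in the sources used here, and its part in the comparisons that cross it was not tested. WT ADX and WT SHAM differed in turn in Nnt, a nuclear gene described below, listed at 0 in 7 of 7 and 2 of 8 libraries. Between WT ADX and WT SHAM mt-Atp6 was called lower at both times (adjusted p = 0.0387 and 0.0495), but its groups overlapped and its fitted difference depends on the values at 0, so none is given. The copies behaved otherwise: Gm28437, the copy of mt-Co3, was at 0 in 0 of 47 libraries.

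Among the set-aside members mt-Co2, which carries the copper centre that receives electrons from cytochrome c, changed with adrenalectomy in wild type without overlap. At ZT0 it read 15.2, 48.6, 11.5 and 24.8 FPKM in WT SHAM and 3.33, 3.41 and 4.04 FPKM in WT ADX. At ZT12 the values were 30.8, 10.3, 21.8 and 18.8 FPKM against 2.64, 2.34, 7.07 and 3.57 FPKM. The groups did not overlap at either time, with log2 differences of -2.58 ± 0.35 (SE, adjusted p = 8.65e-07) and -2.42 ± 0.33 (SE, adjusted p = 1.08e-06), larger than for any kept member. It read 14.6 to 42.0 FPKM in the 32 libraries of the other conditions, and the effect of adrenalectomy differed between genotypes by 2.43 (adjusted p = 0.00087) at ZT0 and 2.26 (adjusted p = 0.00232) at ZT12. Since every window of mt-Co2 is shared with a copy, these values are of reads whose origin cannot be told apart.

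**Figure D4:**
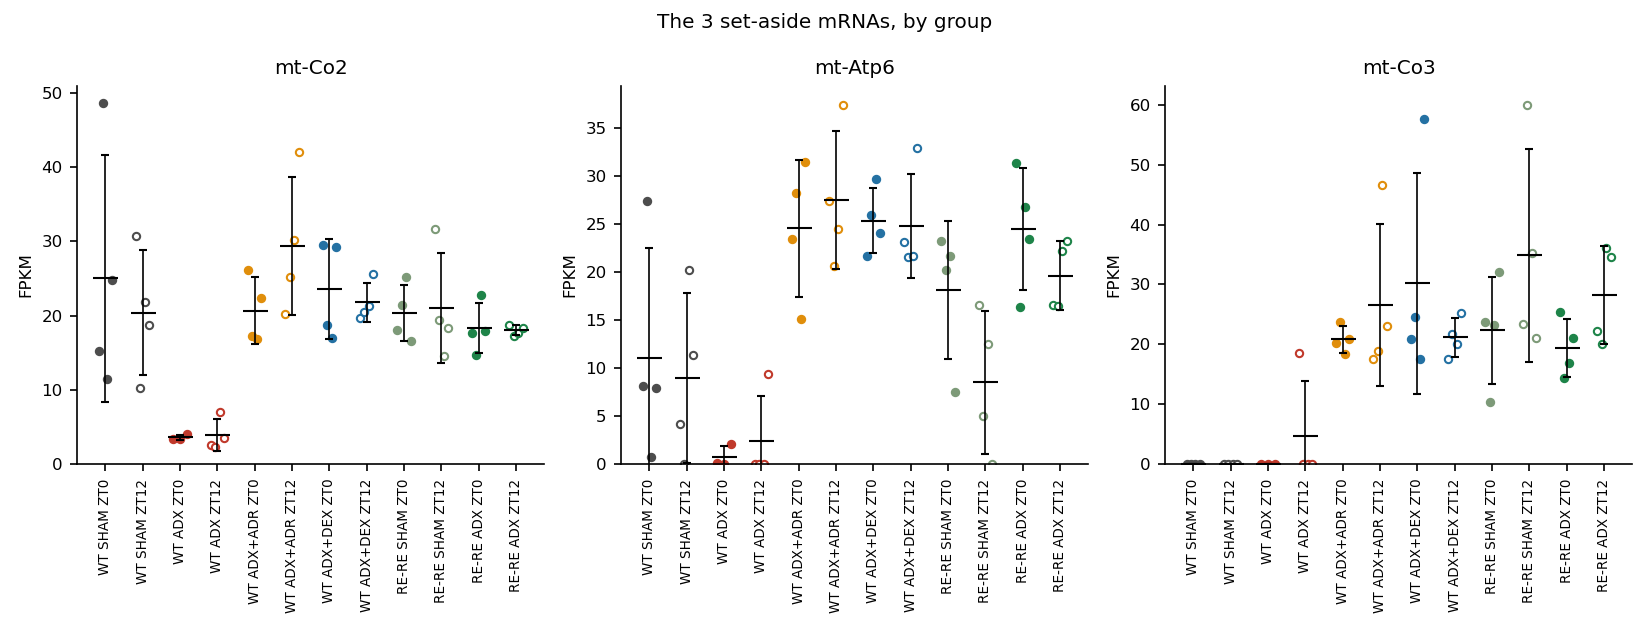
FPKM of the 3 set-aside members in every library, by group; filled points are ZT0, open points ZT12, and bars give the mean and SD. Points for mt-Co3 lie at 0 in 14 of the 15 uninjected wild-type libraries, and from 10.4 up to 59.9 FPKM in the other 32, while mt-Co2 in WT ADX spans 2.34 to 7.07 FPKM.

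The chromosome 1 copies moved with adrenalectomy as well. Of the 7, all were called lower after adrenalectomy in wild type at ZT0 (median log2 -0.48) and 2 were at ZT12 (median -0.25; 6 and 1 after rescaling), beside 19.4% and 16.6% of all tested genes, among them Gm28439, the copy of the first part of mt-Nd4, at ZT0 (-0.64, adjusted p = 7.59e-05). In WT SHAM 6 of 7 were lower at ZT12 than at ZT0 (median -0.34), beside 1140 of 12000 tested genes called lower. No kept member was called in that comparison, but 5 of 6 were called lower there after rescaling. Across the 47 libraries the correlation of the members' mean log2 level with a copy was 0.545 (Gm28438) to 0.893 (Gm28439). Members and copies share the libraries and in part the sequence.

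The kept members rose and fell together. Over the 47 libraries the 15 pairs had Pearson correlations of 0.836 to 0.988 on the log2 scale, with a median of 0.935, so calls of the 6 members are not independent of each other. With the kept members mt-Co2 correlated at 0.743 to 0.811, mt-Atp6 at 0.497 to 0.659 and mt-Co3 at 0.129 to 0.331. Of 9426 nuclear genes compared, the 5 most like the members' mean level were Abhd5, a co-activator of fat breakdown (r = 0.912), Mfn1, which fuses mitochondria (0.900), the ATP synthase subunits Atp5a1 (0.897) and Atp5c1 (0.890), and Lrrc39, a sarcomere protein (0.895). These points share libraries and groups, and the correlations are a description.

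Other RNAs cut from the same genome did not all follow. The 16S ribosomal RNA mt-Rnr2 fell with adrenalectomy at ZT0 (log2 -0.32, adjusted p = 0.0427), and its difference at ZT12 was -0.18 (adjusted p = 0.251). The 12S ribosomal RNA mt-Rnr1 differed by -0.16 and -0.15 (adjusted p = 0.477 and 0.485). Unlike the kept messengers, mt-Rnr1 was lower with dexamethasone than after adrenalectomy alone, by -0.41 (adjusted p = 0.0251) at ZT0 and -0.45 (adjusted p = 0.00821) at ZT12. The complex I messenger mt-Nd6, encoded on the opposite strand, differed by 0.08 and -0.60 with adrenalectomy (adjusted p = 0.864 and 0.107). It rose with dexamethasone by 0.70 and 0.86 (adjusted p = 0.0393 and 0.00729) and with adrenaline at ZT12 by 1.33 (adjusted p = 0.000159). With adrenaline at ZT0 it read 390 to 896 FPKM, which overlapped the 437 to 501 FPKM of WT ADX. At ZT12 WT ADX itself ranged from 179 to 601 FPKM. The matched messenger mt-Nd4l had a mean of 1.27 FPKM and a median of 9 read equivalents per library. It was called lower with adrenalectomy at both times (limma, adjusted p = 0.0297 and 0.0282). At ZT0 its log2 difference was -2.10, with 0.848 to 2.12 FPKM in sham and 0.214 to 0.662 FPKM in WT ADX. At ZT12 the groups overlapped, at 0.361 to 1.3 against 0 to 1.08 FPKM. The fitted difference there, -2.01, depends on a WT ADX library listed at 0. The short mt-Nd3, with 97.9% of windows matched, was at group means of 2.58 to 3.55 FPKM in the uninjected wild-type groups and 0.228 to 1.65 FPKM in the others, the reverse of mt-Co3.

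The nuclear encoded partners of these subunits fell with adrenalectomy too. Of 33 nuclear subunits of complexes I to IV and ATP synthase, 33 fell after adrenalectomy in wild type at ZT0 and 30 at ZT12, with median log2 differences of -0.35 and -0.25, beside the kept members' -0.61 and -0.36 and the median of all tested genes of -0.02 at both times. Of all tested genes 19.4% and 16.6% were called lower. After rescaling outside the mitochondrial genes 26 of the 33 were called lower at ZT0 (median -0.26), and 11 were called lower and 1 higher at ZT12 (median -0.13). At ZT0 Uqcrfs1, the Rieske iron-sulfur protein of complex III, fell by 0.43 on the log2 scale, Cox4i1 of complex IV by 0.33, Atp5a1 of ATP synthase by 0.49 and Sdhb of the wholly nuclear encoded complex II by 0.37. At ZT12 the smallest adjusted p-values of complexes II, III and IV and ATP synthase belonged to Sdha (-0.29), Uqcrc1 (-0.27), Cox6a2 (-0.43) and Atp5b (-0.32). In RE-RE mice 1 of 33 fell at ZT0 and 0 at ZT12, with medians of -0.03 and -0.05, beside 5.45% and 5.32% of tested genes called in either direction. With adrenaline 27 and 30 of 33 were higher than in WT ADX (medians 0.30 and 0.28), beside 26.8% and 27.7% of tested genes. With dexamethasone 30 and 25 were higher and 0 and 1 lower (medians 0.39 and 0.22), beside 36.4% and 34.6% of tested genes called higher. After rescaling 20 and 26 were higher with adrenaline, and with dexamethasone 21 and 13 were higher and 1 and 2 lower. The difference of the adrenalectomy effect between genotypes was called for 26 of 33 at ZT0 and 9 at ZT12, all higher in RE-RE. Of all tested genes 7.38% and 4.82% were called as higher in RE-RE.

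Genes that act on mitochondrial DNA and RNA changed in part. Of 14 genes of mitochondrial DNA transcription and replication 5 fell at ZT0 and 6 at ZT12 in WT ADX, with medians of -0.10 and -0.12, beside 19.4% and 16.6% of all tested genes. After rescaling the medians were -0.01 and 0.01, with 4 and 1 called lower and 1 and 1 higher. Polrmt, the mitochondrial RNA polymerase, fell by 0.41 and 0.36 on the log2 scale (adjusted p = 2.14e-05 and 6.12e-05), and was higher with adrenaline (0.59 and 0.25) and dexamethasone (0.94 and 0.61) than in WT ADX. Tfam differed by -0.03 and -0.09 with adrenalectomy (adjusted p = 0.7 and 0.235). Of 18 RNA processing and stability genes 13 and 12 fell (11 and 4 after rescaling), among them Grsf1 (-0.41 and -0.24) and Lrpprc (-0.37 and -0.28). Of 8 mitochondrial translation factors 6 and 4 fell (5 and 1 after rescaling), Gfm2 (-0.32, ZT0) and Gfm1 (-0.23, ZT12) having the smallest adjusted p-values. Of 9 regulators of mitochondrial biogenesis 6 fell at ZT0, and 3 fell and 1 rose at ZT12 (4 fell and 1 rose at ZT0, and 1 fell and 1 rose at ZT12, after rescaling). The nuclear receptor Esrra fell by 0.65 and 0.39, and the co-activator Ppargc1a by 0.61 and 0.39. Ppargc1a was also lower in RE-RE ADX than in RE-RE SHAM (-0.61, adjusted p = 0.00217, and -0.43, adjusted p = 0.0226), where no kept member was called.

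Some markers of fibre and cell types moved with the members. The 9 slow and oxidative fibre genes summed to 860 to 1692 FPKM after wild-type adrenalectomy and to 2065 to 5704 FPKM in all other libraries. Most of this sum is Mb, the oxygen store myoglobin, at a mean of 2580 FPKM, and Myh2, an oxidative fibre myosin, at 312 FPKM, while the other 7 had means of 1.17 to 55.1 FPKM. Of the 9, 3 fell at each time, beside 19.4% and 16.6% of all tested genes, namely Mb (log2 -1.34 at ZT0 and -1.10 at ZT12), Myh2 (-2.87 and -1.42) and Myl2. The smallest adjusted p at ZT0 was that of Myl2, a slow fibre myosin light chain that was listed at 0 in 9 of the 47 libraries and reached 18.9 FPKM. Myosin gene Myh1 of the fast list fell by 0.85 and 0.73 on the log2 scale, and of the 8 fast genes 1 rose and 1 fell at ZT0 and 3 fell at ZT12. After rescaling 3 fast genes rose and 1 fell at ZT0, and 1 rose and 3 fell at ZT12. The 4 endothelial genes summed to 133 to 156 FPKM in WT ADX and to 54.7 to 107 FPKM elsewhere, with 3 of 4 higher than in sham at ZT0 and 4 of 4 at ZT12, and Pecam1 higher by 0.57 and 0.55. Beside these and the macrophage counts below, 1516 (ZT0) and 1240 (ZT12) of 12000 tested genes were called higher in WT ADX than in sham. With adrenaline 4 and 3 of the endothelial genes were lower than in WT ADX, and with dexamethasone 4 and 4. Of the 12000 tested genes 2914 and 3031 were called lower with adrenaline, and 3900 and 3807 with dexamethasone. Of 4 macrophage genes 2 rose at each time in WT ADX (3 at ZT0 and 2 at ZT12 after rescaling), led by Adgre1 at ZT0 (1.68) and Cd68 at ZT12 (2.02), at summed levels of 5.14 to 19.8 FPKM there and 3.37 to 16.6 FPKM elsewhere. Of 4 red blood cell genes 0 were called with adrenalectomy (summed 64.4 to 283 FPKM in WT ADX, 58.7 to 343 elsewhere), nor were any of 3 adipocyte genes (1.63 to 18.7 FPKM in WT ADX, 0 to 32.3 elsewhere). Nnt, the mitochondrial transhydrogenase, which is disrupted in some C57BL/6 substrains, was listed at 0 in 7 of 7 WT ADX and 2 of 8 WT SHAM libraries, and read 4.97 to 27.1 FPKM in the other 38. The part of fibre type, cell types or substrain in the fall of the 6 messengers was not tested.

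**Figure D5:**
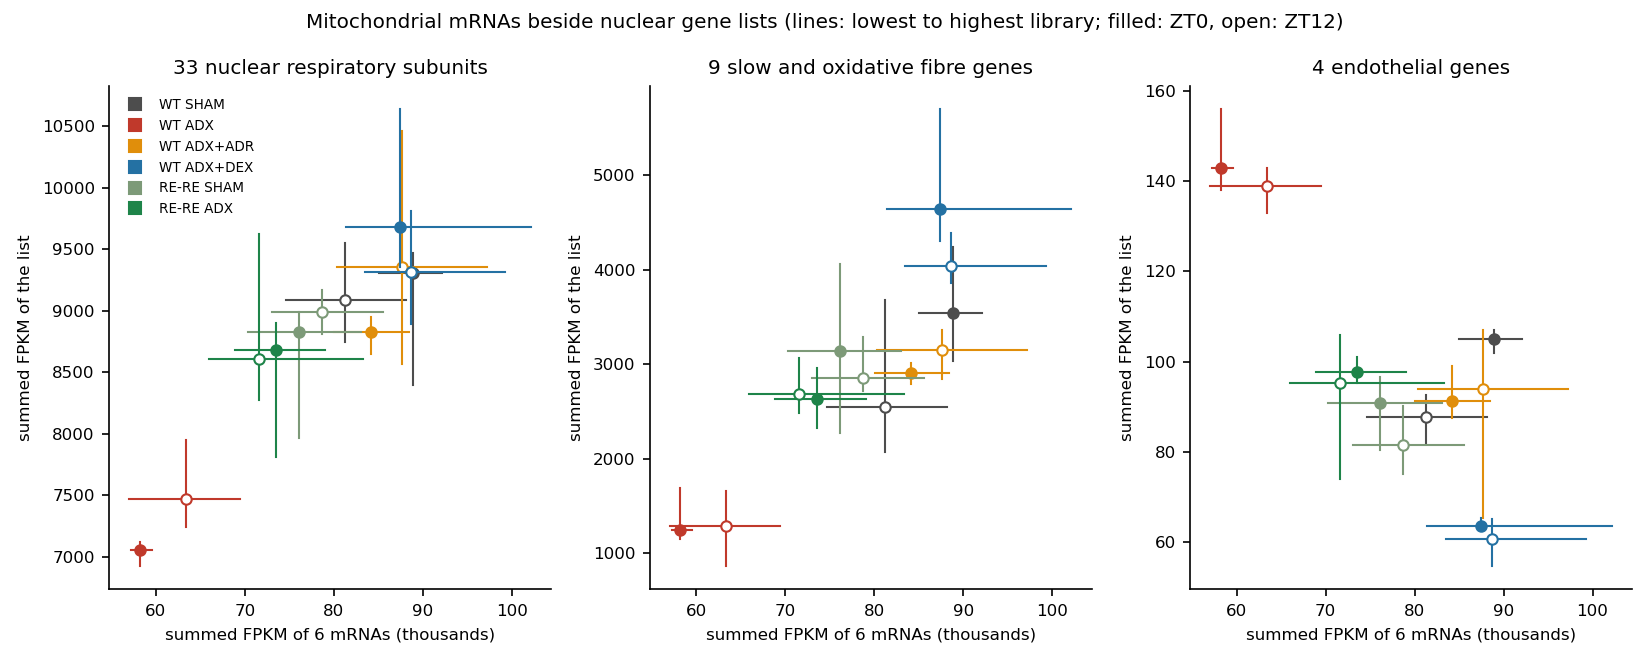
Summed FPKM of the 6 kept members (horizontal, on a scaled axis) against that of 33 nuclear respiratory subunits, 9 slow and oxidative fibre genes and 4 endothelial genes (vertical), by group; points mark the group mean on the horizontal and the median on the vertical axis, and lines run from the lowest to the highest library. The sum in the panel of fibre genes is mostly Mb. WT ADX lies lowest in that panel and in that of the nuclear subunits, at 6923 to 7945 FPKM for the latter beside at least 7813 elsewhere, and highest for the endothelial genes, at 133 to 156 FPKM.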

How the data were processed

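Bulk RNA of 47 tibialis anterior samples in 12 groups was measured as 60 b single-end reads, averaging 25 M per sample per the labels' protocols. The submitters' processing notes name the GRCm38 build, HISAT2 (version 2.1.0), featureCounts (version 1.6.2), edgeR (version 3.30.0), Trim Galore (version 0.5.0) and FastQC (version 0.11.8), with no order. How reads matching several places, and strand, were treated is not given in the sources used here. The deposited table holds FPKM on a log2 scale for 13500 genes, 13446 of them with a GENCODE M21 symbol. Its lowest value, -6.64, equals log2 of 0.01, so values were read as log2(FPKM + 0.01).

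Group means were fitted in limma 3.58.1 (R 4.3.3; lmFit, contrasts.fit, eBayes with trend) to all libraries, with 35 residual degrees of freedom, for 12000 genes reaching 1 FPKM in at least 3 libraries. Two-sided p-values were adjusted by Benjamini-Hochberg within each of 25 comparisons. On data simulated for the wild-type adrenalectomy comparison at ZT0, with 12000 genes, 82% of log2 changes of 1 and 91% of those of 2 were recovered, and 10 unchanged genes were called. Smaller changes, such as those of the kept members, were not simulated, so recovery at their size is not known. The members, gene lists and tests were chosen with earlier results of these data known. All 9 members are named, beside the 5 genes most like them, the gene with the smallest adjusted p of each list, and, chosen by role or level after their values were seen, Tfam, Ppargc1a, Nnt, mt-Rnr1, mt-Rnr2, mt-Nd6, mt-Nd3 and Myh2. A list gene that this rule names is not reported here. Windows of 60 bases were matched exactly on both strands. Depth was recovered from 68 low genes, in which 100% of values were whole within 0.1 read. The alternatives were another offset, no filter, 2 other scalings, age as a covariate, a smaller model, a replicate block, leaving out 7 libraries and leaving out each library in turn. Tables and figures were made in Python 3.11.15 (pandas 2.3.3, numpy 2.4.6, scipy 1.17.1, matplotlib 3.10.9).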

Additional observations from a re-analysis of the deposited data

Results flagged for a closer look

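Of 97 sets of 4 values (a member in a group), 13 had a library far from the other 3 by Dixon's test, which chance gives in about 1 of 20. The sets are not independent, because members share libraries and the kept ones correlate at 0.836 to 0.988. An excess over chance can therefore not be read from this count. WT ADX+DEX replicate 4 at ZT0 was high for mt-Nd1 (22037 FPKM), mt-Cytb (26682 FPKM) and mt-Co1 (18760 FPKM). WT ADX+DEX replicate 8 at ZT12 was high for mt-Nd2 (16678 FPKM), mt-Cytb (25061 FPKM) and mt-Atp6 (32.9 FPKM). RE-RE ADX replicate 8 at ZT12 was high for mt-Nd1 (18423 FPKM), mt-Nd2 (12781 FPKM) and mt-Nd4 (7975 FPKM). Single cases were mt-Nd1 in WT ADX+ADR replicate 1 at ZT0 (20256 FPKM), mt-Nd5 in WT ADX replicate 7 at ZT12 (6132 FPKM), mt-Atp6 in the same library (9.43 FPKM) and mt-Co3 in WT ADX replicate 4 at ZT12 (18.6 FPKM, with 0 in the other 3).

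The effect of adrenalectomy differed between RE-RE and wild type by the test of that difference. At ZT0 the log2 differences were 0.52 (mt-Nd1), 0.58 (mt-Nd2), 0.59 (mt-Nd4), 0.64 (mt-Nd5), 0.59 (mt-Cytb), 0.51 (mt-Co1) and 2.43 (mt-Co2). At ZT12 they were 0.47 (mt-Nd5) and 2.26 (mt-Co2). Of the kept members, 0 were called in either comparison without the 7 libraries that stood apart.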

How the results depend on the processing

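A count of kept members called was taken as unchanged when it was within 1.5 times its reported value. By this, 19 to 24 of 25 counts were unchanged under each of the alternatives, apart from the replicate block and leaving out single libraries, given last. Most of the 25 counts were 0 to begin with and could not fall, so these numbers say little about how stable the calls are. The replicate block could be run for 19 and moved 10, which were all the comparisons with a called member, so the 9 unchanged were counts of 0. With only the groups compared 6 counts moved, each from a comparison with a called member. No called value of a member changed sign under the alternatives. The replicate numbers did not pair the samples (median correlation of deviations 0.0071 between libraries of the same number), and with the replicate block 0 members were called for wild-type adrenalectomy against sham at both times, 0 for WT ADX+ADR against WT ADX at both times, 1 (ZT0) and 0 (ZT12) for WT ADX+DEX against WT ADX, 0 for RE-RE SHAM against WT SHAM at ZT0, 0 for WT ADX+DEX against WT SHAM at ZT12, and 3 (ZT0) and 0 (ZT12) for the difference between genotypes. With only the groups compared, the counts were 2 at ZT0 and 1 at ZT12 for wild-type adrenalectomy against sham, 3 for WT ADX+DEX against WT ADX at ZT0, 0 for RE-RE SHAM against WT SHAM at ZT0, 0 for WT ADX+DEX against WT SHAM at ZT12 and 0 for the genotype difference at ZT12, with smaller drops to 4 for the genotype difference at ZT0 and to 5 for WT ADX+ADR against WT ADX at ZT0. Both settings estimate the spread from fewer samples. Without the 7 libraries that stood apart, the count was 0 for RE-RE SHAM against WT SHAM at ZT0, for WT ADX+DEX against WT SHAM at ZT12 and for the genotype difference at both times. With age as a covariate it was 2 for WT ADX against WT SHAM at ZT12, 1 for RE-RE SHAM against WT SHAM at ZT0 and 0 for the genotype difference at ZT12. After rescaling outside the mitochondrial genes it was 5 for time in WT SHAM, 4 for RE-RE SHAM against WT SHAM at ZT0, 4 (all higher) for WT ADX+ADR against WT SHAM at ZT12, 1 each for WT ADX+ADR and WT ADX+DEX against WT SHAM at ZT0, and 5 for wild-type adrenalectomy at ZT12. On log2(FPKM + 1) it was 4 for RE-RE SHAM against WT SHAM at ZT0 and 1 each for the same comparisons of injected mice with sham at ZT0. With equal medians it was 1 for WT ADX+ADR against WT SHAM at ZT0 and 0 for the genotype difference at ZT12, and with no filter 1 for RE-RE SHAM against WT SHAM at ZT0. The causes were not tested.

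Leaving out each library in turn gave 0 to 4 for RE-RE SHAM against WT SHAM at ZT0, 5 to 6 for WT ADX against WT SHAM at ZT12, 0 to 1 for WT ADX+DEX against WT SHAM at ZT0 (1 without WT ADX+DEX replicate 4), 0 to 2 for the same at ZT12 and 0 to 1 for the genotype difference at ZT12. The other 20 counts did not change. With windows of 40 bases the matched share was 57.0% for mt-Co1, 62.5% for mt-Nd4, 12.0% for mt-Nd5, 10.1% for mt-Nd2, 1.4% for mt-Cytb and 0% for mt-Nd1. Depth limits the set-aside members, which had as few as 38 (mt-Co2) and 0 (mt-Co3, mt-Atp6) read equivalents in a library.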
